A study of Mus musculus with 8 samples.

Results

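Collagen genes were taken as every gene whose symbol is Col, a number, the letter a and a further number, which gave 44 genes of 55536 in the count table. Of these, 11 encode chains of fibrillar collagens, 8 encode chains of basement membrane collagens (types IV, XV and XVIII) and 25 encode chains of other types, including the beaded filament collagens (type VI), the network and anchoring collagens, the fibril-associated collagens known as FACITs, and the transmembrane collagens. RNA was sequenced from 8 tumors grown in the livers of male C3H mice that were 6 to 8 weeks old when HCA-1 cells, a mouse hepatocellular carcinoma (HCC) line, were implanted under the liver capsule. On day 17, 4 mice received saline (Control) and 4 received a single intravenous dose of PFSUV-IMQ at 4 mg per kg (IMQNP), that is, the TLR7 agonist imiquimod loaded into phospholipid-free small unilamellar vesicles, and the tumors were taken 3 h later. All 8 tumors came from the same implanted line, and each was sequenced whole, so that cancer cells, host stroma and adjoining liver contributed to every value. In such a bulk sample, fewer cells of a type and less RNA per cell cannot be told apart.

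Collagens are triple-helical proteins of the extracellular matrix. Fibrillar collagens, led by types I and III, form the tension-bearing fibers that accumulate in liver fibrosis and in the desmoplastic stroma of tumors, where activated hepatic stellate cells and fibroblasts are their main source. Type IV collagen forms the sheet-like network of basement membranes under endothelium and epithelium, while types XV and XVIII link that network to the neighboring matrix, and type VI forms beaded microfilaments around cells. The comparison of IMQNP with Control asked which of these transcripts differed within hours of the PFSUV-IMQ dose. No sequenced group received empty vesicles, so that effects of imiquimod and of the vesicle cannot be told apart.

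The promoters of Col1a2, Col3a1 and Col24a1 are shown as the 250 bases before the annotated start (RefSeq, GRCm38.p6, all on the plus strand). Col1a2 and Col3a1 are highly expressed members. Col24a1 is a scarce member whose call as higher in IMQNP, given below, depended on how genes with low counts were filtered. The windows are chr6:4505368-4505617 for Col1a2, chr1:45311288-45311537 for Col3a1 and chr3:145292222-145292471 for Col24a1. Capitals mark matches, on either strand, to the CCAAT box, named for its letters, to the GC box, searched as GGGCGG, or to the TATA box, searched as TATAAA, and none of the matches overlapped.
Col1a2: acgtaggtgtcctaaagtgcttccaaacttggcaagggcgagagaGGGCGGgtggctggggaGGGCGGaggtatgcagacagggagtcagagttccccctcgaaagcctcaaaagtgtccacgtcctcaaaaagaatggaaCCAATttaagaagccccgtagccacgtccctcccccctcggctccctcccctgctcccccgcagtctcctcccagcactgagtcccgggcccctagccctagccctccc
Col3a1: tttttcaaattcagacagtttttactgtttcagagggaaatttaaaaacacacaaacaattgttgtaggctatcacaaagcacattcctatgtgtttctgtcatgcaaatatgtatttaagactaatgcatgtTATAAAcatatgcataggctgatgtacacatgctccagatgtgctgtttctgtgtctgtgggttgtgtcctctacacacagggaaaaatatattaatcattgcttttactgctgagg
Col24a1: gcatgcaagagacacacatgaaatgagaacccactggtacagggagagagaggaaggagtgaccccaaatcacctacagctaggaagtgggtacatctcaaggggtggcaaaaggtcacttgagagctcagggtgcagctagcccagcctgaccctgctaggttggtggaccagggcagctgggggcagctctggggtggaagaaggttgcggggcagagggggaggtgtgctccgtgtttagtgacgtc
The Col1a2 window held 1 CCAAT box, 109 to 105 bases before the start, and 2 GC boxes, and the Col3a1 window held 1 TATA box, whereas none of these letters occurred in the Col24a1 window. Over the 38 windows of the 35 collagen genes that were matched, 22 held a GC box (57.9%, against 32.7% of all 32851 windows), 13 a CCAAT box (34.2%, against 33.8%) and 5 a TATA box (13.2%, against 12.4%). The core of the interferon-stimulated response element was in 2.98% of all windows and in 0 of the 38 collagen windows. These matches describe the sequence and are not shown to be bound sites.

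Each tumor gave between 16883911 and 27687756 counts, and 3 counts corresponded to 0.105 to 0.21 CPM, the unit used here for counts per library after TMM scaling. All 5 interferon-response genes that were examined as a check of treatment were called higher in IMQNP. The summed level of 10 hepatocyte markers was 34304 CPM in Control 4 and 35699 CPM in IMQNP 2, against 4508 to 14124 CPM in the other 6 tumors, so that each group held 1 tumor with far more hepatocyte RNA. Of 5 HCC markers, Spp1 supplied most of the sum, Afp lay between 2.1 and 6.08 CPM, and Igf2 had fewer than 3 counts in every tumor. Fibroblast and stellate cell markers, 15 genes, summed to 372 to 709 CPM in Control and 449 to 745 CPM in IMQNP, and 9 endothelial markers to 161 to 257 CPM and 145 to 211 CPM.

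Collagen RNA made up between 0.526% and 1.30% of all counts in a tumor, and most of it came from a few genes. Fibrillar members supplied a median of 51.0% of collagen counts in Control tumors (47.0% to 56.3%) and 60.2% in IMQNP tumors (53.4% to 68.1%), with the ranges of the groups overlapping. Basement membrane members supplied a median of 19.3% in Control and 16.2% in IMQNP, and type VI members 26.4% and 20.5%. The family spanned mean levels over the 8 tumors from 239 CPM per kb of exon for Col1a1 to 0.0025 CPM per kb for Col9a1, the only member with fewer than 3 counts in every tumor.

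**Figure D1:**
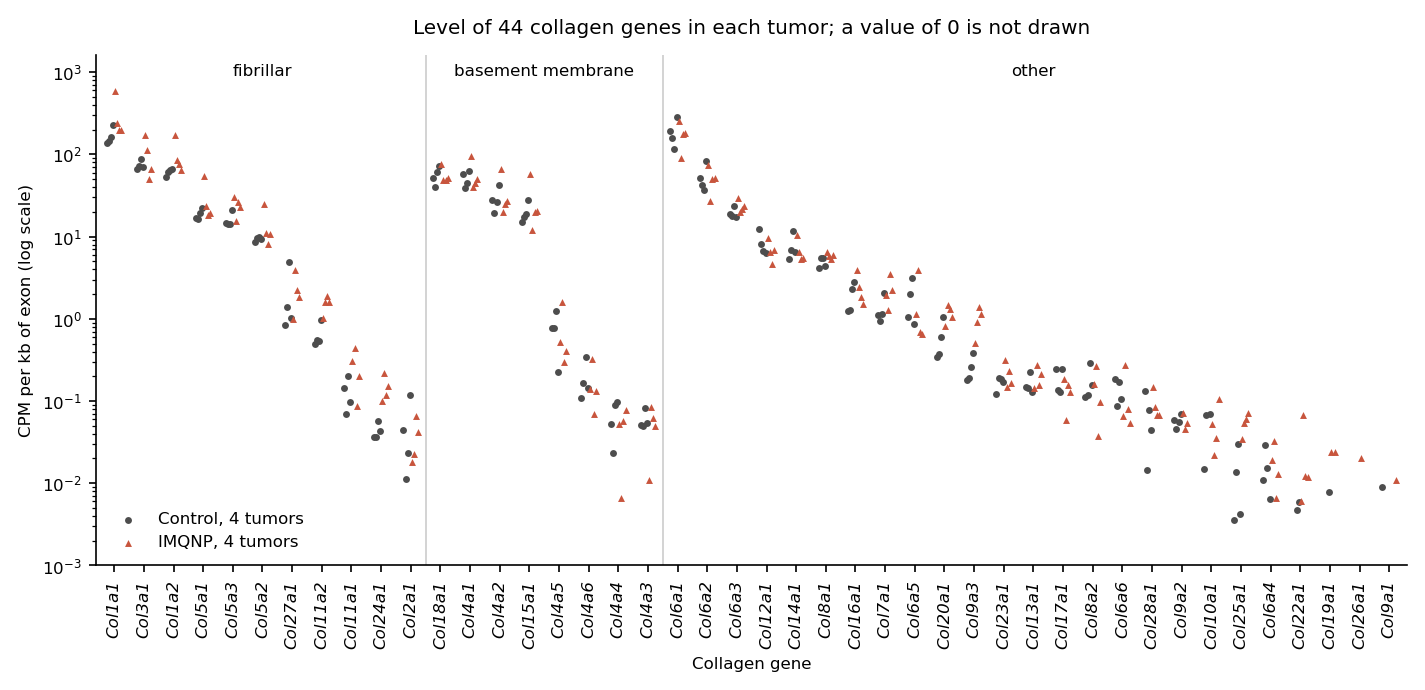
Level of the 44 collagen genes in each of the 8 tumors (vertical axis, CPM per kb of exon on a log scale; grey circles, 4 Control tumors; red triangles, 4 IMQNP tumors), grouped into fibrillar, basement membrane and other types and ordered by mean level. Col1a1, Col3a1, Col1a2, Col6a1, Col4a1 and Col18a1 lie far above the cartilage and neuronal members, and the highest triangle of Col1a1 and of Col1a2 is IMQNP 1.

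When levels were compared per length of exon, Col6a1 (188 ± 71.8 CPM per kb, SD, n = 4) and Col1a1 (169 ± 41.7 CPM per kb) were the highest members in Control tumors, and the difference was within their tumor-to-tumor spread. Col3a1, the homotrimeric fibrillar collagen of reticular fibers, followed with a level of 74.5 ± 9.84 CPM per kb and Col1a2 with 61.4 ± 6.17 CPM per kb. These last levels depended on the length used, because the union of annotated exons is much longer than the main transcript of both genes. With the longest transcript as the length, the Control level was 143 CPM per kb for Col1a2 and 131 CPM per kb for Col3a1.
Among basement membrane members, Col18a1, the precursor of endostatin, had a Control level of 56.4 ± 13.8 CPM per kb and Col4a1 of 51.0 ± 11.1 CPM per kb, within the spread of each other. Col4a2 stood at 29.0 ± 9.66 CPM per kb and Col15a1 at 19.7 ± 5.38 CPM per kb. The remaining type IV chains, which are known from the glomerulus and other specialized basement membranes, were far lower, with Control levels between 0.0591 ± 0.0153 CPM per kb for Col4a3 and 0.759 ± 0.42 CPM per kb for Col4a5.
Among members outside these classes, Col6a1 was followed by Col6a2 (53.3 ± 20.3 CPM per kb, or 90.4 ± 34.4 CPM per kb with the longest transcript) and Col6a3 (19.3 ± 2.81 CPM per kb), which assemble with Col6a1 into the standard type VI trimer. The FACIT member Col12a1, whose product decorates the surface of type I fibrils, came next with 8.40 ± 2.81 CPM per kb. Col2a1, the main collagen of cartilage, had 3 to 20 counts in each tumor.

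The median spread between tumors also differed by type, though the ranges overlapped. The median coefficient of variation (CV) among Control tumors was 33.9% over the 34 members with enough counts to be tested, against 24.4% over all 15998 tested genes. By type, it was 21.6% for fibrillar, 30.3% for basement membrane and 36.4% for other members. The ranges were 6.71% to 94.8%, 21.8% to 55.3% and 14.6% to 58.8% in turn. Scarce members were included, and the types were not matched for level. In IMQNP tumors the corresponding medians were 55.2%, 62.4% and 37.8%, and 24.5% over all tested genes. The steadiest members in Control were Col5a2 (CV 6.71%), Col1a2 (10.0%) and Col3a1 (13.2%), and the most variable were Col27a1 (94.8%), Col6a5 (58.8%) and Col4a5 (55.3%).

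Much of the spread in the treated group lay in a single tumor. IMQNP 1 was the highest of the 8 tumors for 14 of the 34 tested members, including 6 of the 10 tested fibrillar and 4 of the 8 basement membrane members. The summed level of fibrillar collagens was 2556, 2786, 3171 and 3475 CPM in Control 1, 3, 4 and 5, and 8644, 4256, 3195 and 3199 CPM in IMQNP 1 to 4. IMQNP 1 thus stood well above all other tumors, and IMQNP 3 and 4 lay within the Control range. The fibroblast and stellate cell marker sum was 639 CPM in IMQNP 1, inside the Control range, but 7 of the 15 markers were above every Control tumor there, among them Acta2 (129 CPM against at most 72.6 CPM), Postn (90.3 against 66.4 CPM) and Pdgfrb (68.3 against 54.0 CPM). The part of cell composition in the collagen level of that tumor was not tested.

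**Figure D2:**
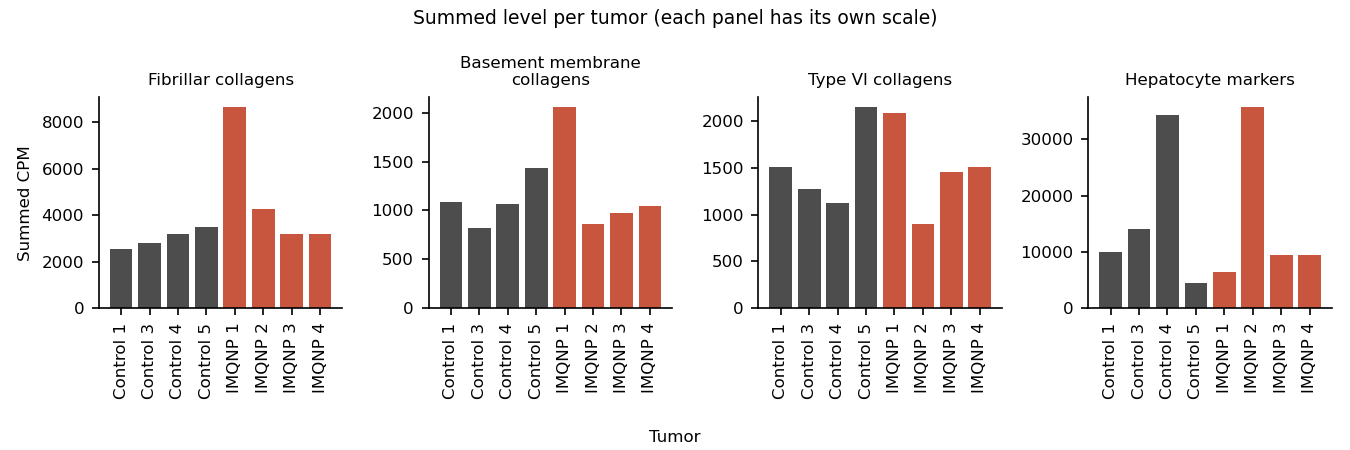
Summed level (CPM) of fibrillar, basement membrane and type VI collagens and of 10 hepatocyte markers in each tumor (grey bars, Control; red bars, IMQNP; each panel has its own linear axis from 0). IMQNP 1 holds the highest fibrillar and basement membrane sums (8644 and 2055 CPM), while Control 4 and IMQNP 2 hold the highest hepatocyte marker sums and the lowest type VI sums.

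A different set of members was highest in the hepatocyte-rich tumors. Col27a1, a fibrillar collagen known from cartilage, had levels of 10.9, 18.3, 64.4 and 13.2 CPM in the Control tumors and 12.8, 51.7, 29.3 and 23.8 CPM in the IMQNP tumors. Its highest values thus belonged to Control 4 and IMQNP 2, and the groups overlapped. The levels of Col6a5, an alternative type VI chain, were 9.77, 18.97, 29.2 and 8.14 CPM in Control and 10.9, 37.0, 6.58 and 6.17 CPM in IMQNP, with the same 2 tumors on top. Col4a5 (8.42 and 10.7 CPM) and Col4a6 (2.75 and 2.58 CPM), which lie head to head on the X chromosome with 1309 bases between the genes, also had their highest levels in Control 4 and IMQNP 2. In contrast, Col6a1 was lowest in these tumors, with levels of 511 and 397 CPM against 695 to 1251 CPM elsewhere. Whether hepatocyte RNA accounts for these levels was not tested.

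**Figure D3:**
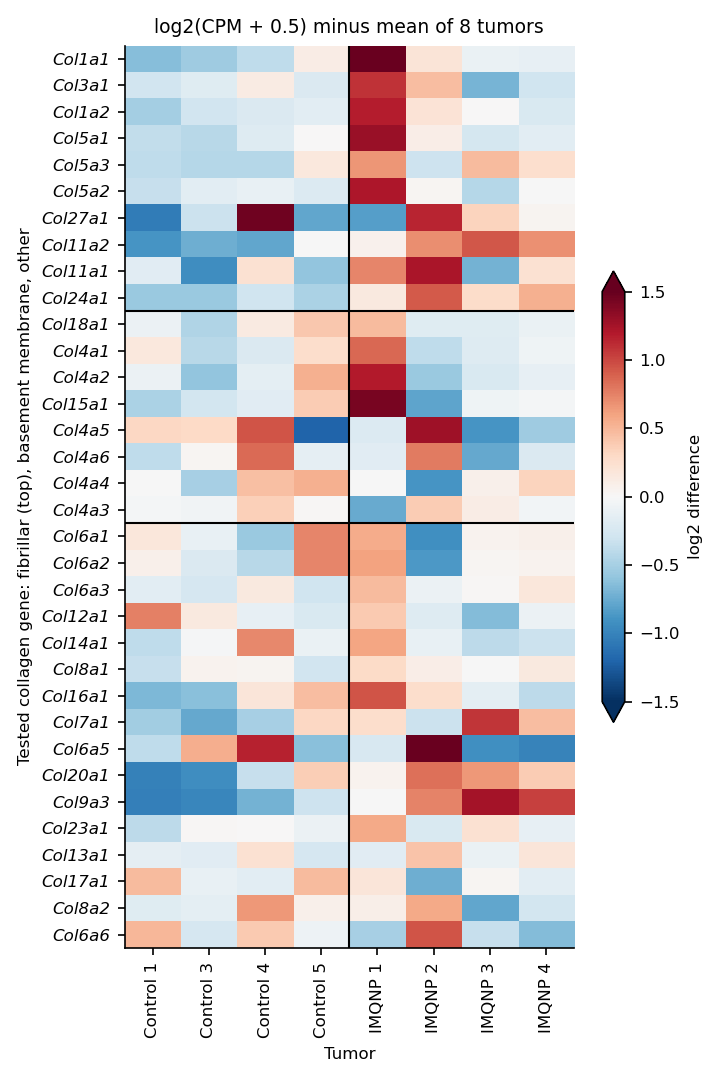
Level of each tested collagen gene in each tumor as log2(CPM + 0.5) minus its mean over the 8 tumors (color, blue lower and red higher, saturated beyond 1.5 in size; rows ordered by type and mean level; columns are tumors with Control on the left). The dark red column of IMQNP 1 runs through the type I, III and V chains and Col4a1, Col4a2 and Col15a1, and Col27a1, Col6a5, Col4a5 and Col4a6 are red in both Control 4 and IMQNP 2.

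Chains that assemble into the same trimer varied together across the tumors. Over the 8 tumors, log2 levels of Col6a1 and Col6a2, whose genes are neighbors, gave a Pearson r of 0.99 (Spearman rho 1.0; exact permutation p = 2.48e-05, the smallest the pairings allow; adjusted p = 0.000174). For Col4a1 and Col4a2, which start from a shared promoter region with 22 bases of overlap between the genes, r was 0.97 (rho 0.98; exact permutation p = 7.44e-05, adjusted 0.00026), and for Col1a1 and Col1a2 r was 0.97 (rho 0.95; exact permutation p = 0.000794, adjusted 0.00185). Without the 2 tumors farthest from the median, these values were 0.97, 0.85 and 0.74.
The pair Col5a1 and Col5a2 gave r = 0.96 (rho 0.71; exact permutation p = 0.0127, adjusted 0.0222), but only 0.29 without IMQNP 1 and IMQNP 2, so that the pooled relation rests on those tumors. Centered on group means it gave r = 0.95 (rho 0.81, exact permutation p = 0.0313 for r, adjusted 0.0462, and 0.0868 for rho, adjusted 0.122), and 0.85 without IMQNP 1 and Control 5. Across types, Col1a1 gave r = 0.78 with Col3a1 (rho 0.45; exact permutation p = 0.0388, adjusted 0.0543), 0.74 with Col4a1 (rho 0.36; exact permutation p = 0.06, adjusted 0.0701) and 0.35 with Col6a1 (rho 0.17; exact permutation p = 0.398, adjusted 0.398). Without the 2 farthest tumors these fell to 0.19, 0.43 and 0.08, and none of the 3 passed after adjustment over the 7 pairs that were compared. Centered on group means, however, the pair Col1a1 and Col3a1 gave r = 0.79 (rho 0.81, exact permutation p = 0.033 for r, adjusted 0.0462, and 0.0833 for rho, adjusted 0.122), and 0.89 without its 2 farthest tumors. The tumors share a sequencing depth and scaling per library, and both groups were pooled; within groups, with each level centered on its group mean, r was 0.95 for Col1a1 and Col1a2, 0.97 for Col4a1 and Col4a2 and 0.99 for Col6a1 and Col6a2 (rho 0.98 for each; exact permutation p = 0.00174, the smallest the pairings within groups allow, adjusted 0.00405).
The ratio of chains was steady as well. On the per-length scale, the level of Col6a1 was 3.16 to 3.75 times that of Col6a2 in every tumor (1.99 to 2.36 times with the longest transcripts), and Col4a1 was 1.40 to 2.11 times Col4a2, with means of 1.81 ± 0.294 in Control and 1.76 ± 0.254 in IMQNP. The ratio of Col1a1 to Col1a2 was 2.74 ± 0.469 in Control and 3.01 ± 0.377 in IMQNP, and with the longest transcripts as the lengths it was 1.30 ± 0.223 and 1.43 ± 0.18. For Col1a1 to Col3a1 it ranged more widely, from 1.84 in Control 4 to 3.98 in IMQNP 3 (1.15 to 2.50 with the longest transcripts).

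At 3 h after PFSUV-IMQ, 2 collagen genes were called higher in IMQNP (a log2 fold change over 1 with an adjusted p below 0.05), Col9a3 and Col24a1, and 0 were called lower. Among all 15998 tested genes, 2.26% were called higher and 0.2% lower, and the call of Col24a1 depended on the filter for low counts. Col24a1 passed that filter only through the IMQNP tumors, and it is part of the counts of higher members given below. Of the 34 tested members, 21 had a fitted log2 fold change above 0, compared with 46.0% of all tested genes, and the median log2 fold change was 0.27 (also 0.27 without Col24a1), against -0.03 over all genes. At an unadjusted p under 0.05, 6 members were higher and 0 lower (8.34% and 4.65% of all genes), and the DESeq2 Wald test called 3 members higher (Col9a3, Col24a1 and Col11a2) and 0 lower, against 3.12% higher and 0.67% lower of the 19857 genes to which it gave an adjusted p. All 10 tested fibrillar members had a fitted value above 0 (median 0.66, or 0.63 without Col24a1), whereas the medians were -0.06 for the 8 basement membrane members and 0.10 for the 16 tested members of other types. Without IMQNP 1, the medians were 0.36 for fibrillar, -0.17 for basement membrane and 0.08 for all tested members, and without Control 4 they were 0.78, 0.16 and 0.42. Of the fibrillar members, 9 of 10 had a fitted value above 0 in the fits without Control 1, Control 3, Control 5 or IMQNP 2.

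**Figure D4:**
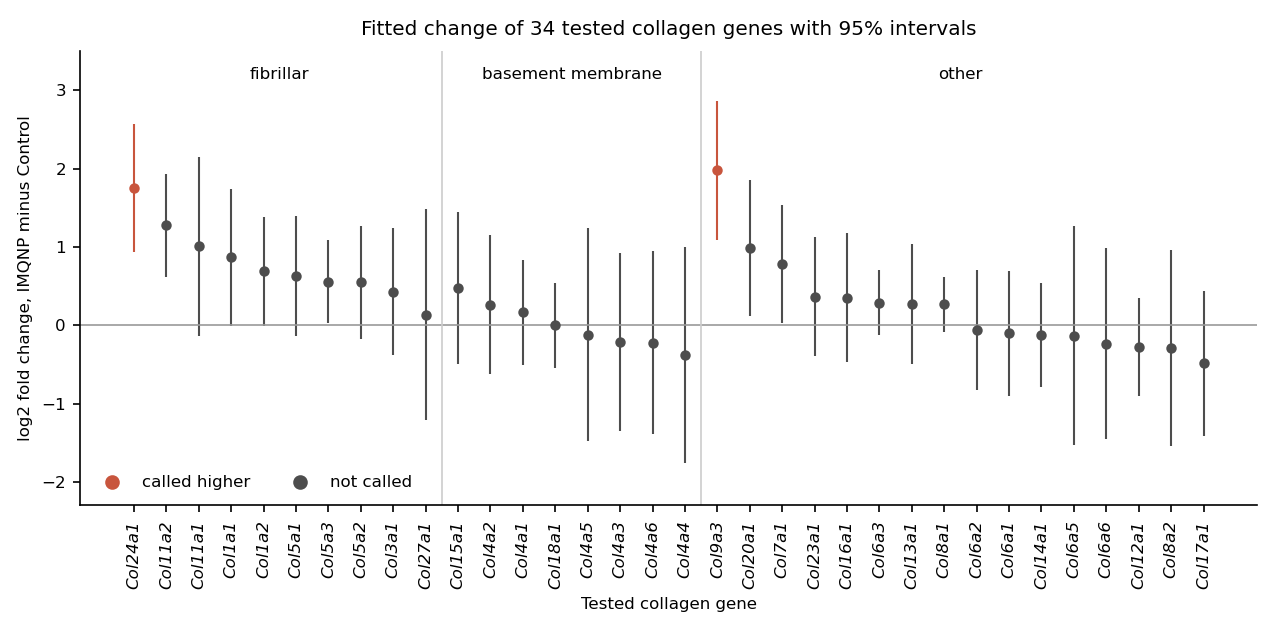
Fitted log2 fold change of the 34 tested collagen genes, IMQNP minus Control, with 95% intervals (vertical axis; red, called higher; grey, not called), by type and in descending order. Every fibrillar point lies above 0, most intervals include 0, and the 2 called genes are Col24a1 (1.75) and Col9a3 (1.98).

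Col9a3 (ENSMUSG00000027570, chromosome 2, 180597790 to 180622189, GRCm38, plus strand) encodes a chain of type IX collagen, a FACIT that coats type II fibrils in cartilage. Its levels were 0.691, 0.738, 0.988 and 1.47 CPM in the Control tumors and 1.93, 3.56, 5.30 and 4.47 CPM in the IMQNP tumors, which correspond to 15 to 27 and 35 to 95 counts. Every IMQNP tumor lay above every Control tumor. The means were 0.971 ± 0.355 and 3.81 ± 1.44 CPM, and the log2 fold change was 1.98 (SE 0.39, adjusted p = 0.0304). The call was kept in 2 of the 8 fits that left out 1 tumor, those without Control 5 or IMQNP 1, with log2 fold changes from 1.78 to 2.24 and adjusted p from 0.0155 to 0.114. Ogfr, the opioid growth factor receptor gene, ends 1954 bases upstream of Col9a3 on the same strand, and its level rose from 53.1 ± 15.3 to 142 ± 26.3 CPM (log2 fold change 1.42, SE 0.23, adjusted p = 0.0104; called in 8 of 8 such fits). In addition, 6.07% of the Col9a3 exon bases overlap Tcfl5 on the opposite strand, which had too few counts to be tested. Whether reads from Ogfr transcripts that run past its annotated end were counted for Col9a3 was not tested.
The partners of Col9a3 in type IX collagen gave little signal, since Col9a1 had at most 1 count in a tumor and Col9a2 stayed between 0 and 0.221 CPM. The 6 cartilage and bone markers, of which 3 were tested and 0 were called, summed to 92.1 to 209.5 CPM in Control and 148 to 269 CPM in IMQNP. Nearly all of this was Sox9, which is also a cholangiocyte gene, while Acan reached at most 4.52 CPM and Comp at most 0.91 CPM, and Ibsp, Bglap and Sp7 were at or near 0 throughout.

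Col24a1 (ENSMUSG00000028197, chromosome 3, 145292472 to 145552011, plus strand) encodes a minor fibrillar collagen of developing bone and cornea. Its levels were 0.277, 0.281, 0.430 and 0.326 CPM in Control, from 6 to 10 counts, and 0.772, 1.68, 0.892 and 1.16 CPM in IMQNP, from 14 to 24 counts. Col24a1 reached the cutoff of the low-count filter in 0 Control and 4 IMQNP tumors, so that it could enter the test only by being high in the treated group, and its values are given as a description. The groups did not overlap, and the fitted log2 fold change was 1.75 (SE 0.37, adjusted p = 0.0378). Without a filter the adjusted p was 0.0828, and with at least 10 counts required in every tumor the gene was not tested. The call was kept in 1 of the 8 fits that left out 1 tumor, the one without IMQNP 1, and over all 8 the log2 fold change ran from 1.49 to 1.91 and the adjusted p from 0.042 to 0.146. The neighboring genes Odf2l (log2 fold change 0.39) and Znhit6 (-0.20) were not called. With Control 4 and IMQNP 2 both left out, neither Col9a3 (log2 fold change 2.004, adjusted p = 0.0958) nor Col24a1 (1.64, adjusted p = 0.113) passed.

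Col11a2 (ENSMUSG00000024330, chromosome 17, 34039437 to 34066685, plus strand) encodes a type XI chain that sets fibril diameter in cartilage. It had levels of 3.36, 3.79, 3.65 and 6.57 CPM in Control and 6.95, 11.04, 13.1 and 10.9 CPM in IMQNP. It was the third member whose groups did not overlap, with Col9a3 and Col24a1 and all in the higher direction, a pattern found in 6.0% of all tested genes (3.28% in the lower direction, with 0 members). Of these, Col24a1 passed the low-count filter only through the IMQNP tumors, so that its part in this count carries no weight. The log2 fold change of Col11a2 was 1.28 (SE 0.29, adjusted p = 0.0564), just short of a call. Col11a2 was called by DESeq2 (adjusted p = 0.00223), by edgeR without a filter (adjusted p = 0.0329), without Control 5 (adjusted p = 0.025) and without IMQNP 1 (adjusted p = 0.0387). Over the 8 fits that left out 1 tumor, its adjusted p ran up to 0.179. Its neighbor Rxrb had a log2 fold change of 0.02. The related chain Col11a1 had 0.878 to 2.58 CPM in Control and 1.12 to 5.66 CPM in IMQNP, with overlapping groups and a log2 fold change of 1.01 (SE 0.51, adjusted p = 0.466).

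**Figure D5:**
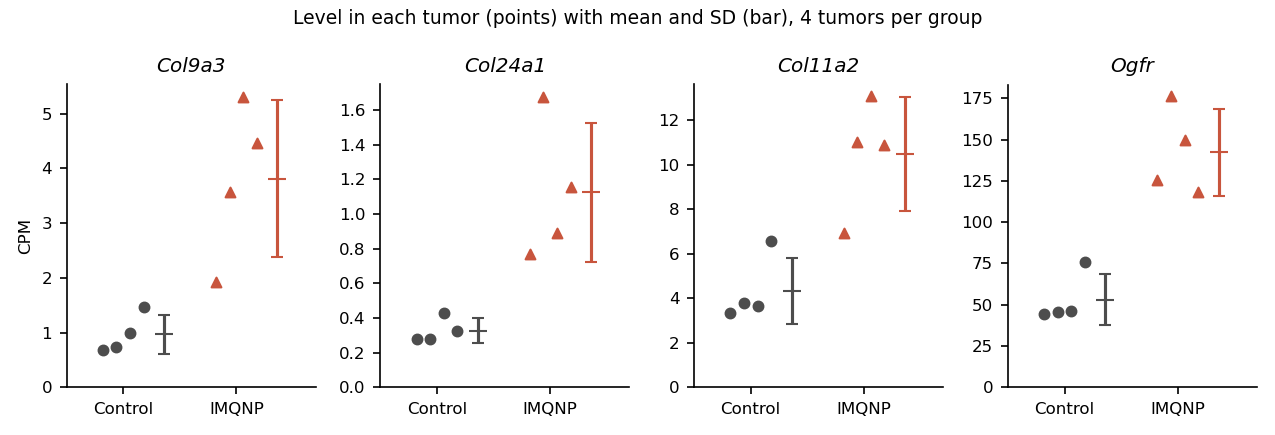
Level (CPM, linear axis from 0) of Col9a3, Col24a1, Col11a2 and Ogfr in each tumor (grey circles, Control; red triangles, IMQNP), with the mean and SD of each group of 4 beside the points. In all 4 genes the lowest IMQNP tumor lies above the highest Control tumor, as in Col11a2 (6.95 against 6.57 CPM).

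Type I collagen was not called in either chain. Col1a1 had levels of 902, 965, 1072 and 1509 CPM in Control and 3913, 1599, 1308 and 1288 CPM in IMQNP. IMQNP 1 stood far above the next tumor, and IMQNP 3 and 4 lay below Control 5. The log2 fold change was 0.87 (SE 0.39, 95% interval -0.01 to 1.74, adjusted p = 0.392), and it was 0.33 (adjusted p = 0.615) without IMQNP 1.
Col1a2 had levels of 657, 763, 801 and 833 CPM in Control and 2111, 1075, 938 and 798 CPM in IMQNP, with IMQNP 4 inside the Control range. Its log2 fold change of 0.69 (SE 0.31, adjusted p = 0.39) became 0.29 without IMQNP 1. The levels of Col3a1 were 656, 707, 872 and 689.5 CPM in Control and 1692, 1102, 491 and 651 CPM in IMQNP, so that the treated group held both the highest and the lowest tumors. Its log2 fold change was 0.43 (SE 0.36, adjusted p = 0.724), and 0.03 without IMQNP 1.
Type V collagen, which nucleates type I fibrils, followed the same tumor. Col5a1 was 139 to 187 CPM in Control and 154 to 457 CPM in IMQNP, where 457 CPM was again IMQNP 1 (log2 fold change 0.63, SE 0.34, adjusted p = 0.513). Col5a2 was 81.8 to 95.7 CPM and 77.2 to 241 CPM (log2 fold change 0.55, SE 0.32, adjusted p = 0.555). Without IMQNP 1, the values were 0.13 for Col5a1 and 0.08 for Col5a2. In Col5a3, the third chain of the type, the levels were 99.9, 96.6, 96.7 and 145 CPM in Control and 205, 104, 181 and 154 CPM in IMQNP. The groups overlapped only through Control 5 and IMQNP 2, and the log2 fold change of 0.56 (SE 0.24, unadjusted p = 0.0409, adjusted p = 0.349 by edgeR) was not called.

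No basement membrane member had an unadjusted p under 0.05, and the fitted values were small beside their errors. Col4a1 had levels of 434, 289.9, 332 and 466 CPM in Control and 704, 298, 338 and 370.0 CPM in IMQNP, and Col4a2 had 182, 129, 176 and 281 CPM and 445, 132, 165 and 178 CPM. In both genes IMQNP 1 was the highest tumor and the other 3 IMQNP tumors lay inside the Control range. The log2 fold change was 0.17 (95% interval -0.50 to 0.84) for Col4a1 and 0.26 (-0.63 to 1.15) for Col4a2, and both were below 0 without IMQNP 1 (-0.18 and -0.28).
Col18a1 averaged 396 ± 96.9 CPM in Control and 396 ± 95.9 CPM in IMQNP, a log2 fold change of 0.00 (95% interval -0.54 to 0.54). The interval thus still admits changes of that size in either direction. Col15a1 had 96.2 to 174 CPM in Control and 77.1 to 361 CPM in IMQNP, with both extremes in the treated group (log2 fold change 0.48, SE 0.43, adjusted p = 0.746; -0.16 without IMQNP 1). Among the scarce chains, Col4a4 had the lowest fitted value, -0.38 (SE 0.62, adjusted p = 0.877), at 0.0699 to 1.03 CPM.

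The abundant type VI chains differed little between the groups. Col6a1 had levels of 845, 695, 511 and 1251 CPM in Control and 1107, 397, 778 and 793 CPM in IMQNP. The ranges overlapped almost fully, and the log2 fold change was -0.10 (95% interval -0.90 to 0.69). For Col6a2 it was -0.06 (-0.83 to 0.70) and for Col6a3 0.29 (-0.13 to 0.70). Col6a6, at 0.496 to 2.52 CPM, had a fitted value of -0.23 (SE 0.54, adjusted p = 0.923).
Among the remaining members, Col20a1, a FACIT, had levels of 1.75, 1.90, 3.09 and 5.38 CPM in Control and 4.25, 7.62, 6.69 and 5.46 CPM in IMQNP, with an overlap of Control 5 and IMQNP 1 (log2 fold change 0.99, SE 0.39, unadjusted p = 0.0297, adjusted p = 0.306 by edgeR). Col7a1, the anchoring fibril collagen beneath the epidermis, had 9.63 to 20.9 CPM and 13.3 to 35.6 CPM (log2 fold change 0.78, SE 0.34, unadjusted p = 0.0437, adjusted p = 0.36 by edgeR). The lowest fitted values belonged to Col17a1, the hemidesmosomal transmembrane collagen (-0.49, SE 0.41, adjusted p = 0.726), Col8a2 (-0.29, SE 0.56, adjusted p = 0.904) and Col12a1 (-0.28, SE 0.28, adjusted p = 0.77). In each of these 3 genes the groups overlapped.
The 10 members that were not tested, Col2a1, Col6a4, Col9a1, Col9a2, Col10a1, Col19a1, Col22a1, Col25a1, Col26a1 and Col28a1, had at most 20 counts in any tumor. One of them, Col25a1, a transmembrane collagen of neurons and muscle, was singled out after its values were seen. It had levels of 0.0461, 0.176, 0.387 and 0.0543 CPM in Control and 0.441, 0.699, 0.781 and 0.937 CPM in IMQNP, which did not overlap.

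Genes that make, trim, degrade or sense collagen were examined as 6 lists. Over all 15998 tested genes, 2.26% were called higher and 0.2% lower by edgeR. At an unadjusted p under 0.05 in edgeR, 8.34% of them were higher and 4.65% lower. By DESeq2, 3.12% of 19857 genes were called higher and 0.67% lower. Of 19 tested genes for folding and modification, 0 were called by edgeR or by DESeq2, with 4 higher and 0 lower at an unadjusted p under 0.05. The smallest p belonged to P4ha2, a prolyl hydroxylase subunit (33.8 ± 7.70 against 55.6 ± 4.75 CPM, log2 fold change 0.72, adjusted p = 0.0944), and to Serpinh1, the collagen chaperone HSP47 (0.62, adjusted p = 0.224). Of 16 genes for procollagen processing and crosslinking, 0 were called by either tool, and 3 were higher and 1 lower at an unadjusted p under 0.05 in edgeR, with Tgm2 (0.87, adjusted p = 0.11) and Fmod (-0.84, adjusted p = 0.119) having the smallest p. Collagen receptors likewise had 0 of 10 called by either tool, with 1 gene higher and 1 lower at an unadjusted p under 0.05 in edgeR, and the smallest p belonged to Lair1, an inhibitory receptor of leukocytes (-0.65, adjusted p = 0.258), and to Itga2 (0.72, adjusted p = 0.294).
Calls by edgeR in the other 3 lists were all in the higher direction. They numbered 1 of 16 for degradation, 2 of 18 for TGF-beta and PDGF signals and 1 of 15 for the laminin list. At an unadjusted p under 0.05 in edgeR, these lists held in turn 4, 3 and 3 genes higher and 1, 0 and 0 lower. In the degradation list, 1 of 16 genes was called, Fap, a fibroblast-surface protease, with levels of 0.691, 1.12, 1.72 and 1.85 CPM in Control and 3.92, 12.5, 9.20 and 7.06 CPM in IMQNP. The groups did not overlap (log2 fold change 2.60, SE 0.43, adjusted p = 0.0129; not called without Control 3). The collagenase Mmp13 had a log2 fold change of 1.79 (adjusted p = 0.0665). DESeq2 called Mmp13 and Timp1 higher as well, and Mmp15 lower (log2 fold change -1.68, adjusted p = 0.0132 by DESeq2). Among 18 genes of TGF-beta and PDGF signals to collagen genes, Ctgf rose from 34.9 ± 4.93 to 135 ± 66.4 CPM (log2 fold change 1.95, SE 0.30, adjusted p = 0.0094; called in 8 of 8 fits that left out 1 tumor). The median of that list was -0.08, with 6 genes above and 12 below 0. Of 15 laminins and other basement membrane genes, Agrn, the heparan sulfate proteoglycan agrin, rose from 55.8 ± 2.92 to 149.6 ± 28.6 CPM (1.42, SE 0.17, adjusted p = 0.00276). Agrn spans 156165290 to 156197488 on chromosome 4, and the interferon-response gene Isg15 spans 156199424 to 156200818. Isg15 rose from 15.0 ± 4.64 to 490 ± 228 CPM. Whether reads from Isg15 transcripts were counted for Agrn was not tested. The lists of fibroblast and stellate cell and of endothelial markers had 0 genes called by edgeR, with 1 gene lower and 0 higher at an unadjusted p under 0.05 in each, and medians of -0.04 and -0.26, while DESeq2 called 1 of them, the stellate cell gene Lrat, lower.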

How the data were processed

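RNA of 8 tumors was made into mRNA libraries (KAPA mRNA HyperPrep). The authors deposited whole-number counts of reads per gene, and every test started from them. A further table that the authors deposited holds a signal, the DESeq2 normalized counts, which equaled the counts divided by 1 factor per tumor and were used here only to find the collagen genes by symbol. The methods name TopHat v2.0.12 and HTSeq v0.6.1, whereas the submitters' processing notes list Trimmomatic 0.38, HISAT2 2.1.0 and featureCounts 2.0.0, and the genome build and strand setting are not given in the sources used here. Without strand, reads of overlapping genes on opposite strands cannot be told apart.

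Genes were placed and measured with GENCODE M21 (GRCm38), which holds 55450 of the 55536 gene IDs. Counts were scaled by TMM and filtered with filterByExpr in edgeR 4.0.16 (R 4.3.3), which left 15998 genes, and IMQNP was compared with Control by the quasi-likelihood test, with p-values adjusted by Benjamini-Hochberg across these genes. Calls needed a log2 fold change over 1 in either direction together with an adjusted p below 0.05. The scripts were tested on simulated data. Levels are CPM with TMM-scaled libraries, per kb of the union of exons where genes are compared, and errors are SDs over 4 tumors. Correlations used log2 CPM with exact permutation tests, two-sided. The alternatives were other scalings (RLE, upper quartile), 2 other filters, DESeq2 1.42.0, no limit on the fold change, a replicate block, each tumor left out in turn, another gene length and levels centered on the group mean. Leaving out Control 4 and IMQNP 2 together was chosen after seeing the data.

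Depth was 16883911 to 27687756 counts per tumor, and differences between tumors of a group exceeded sampling noise (lowest chi-square per degree of freedom 30.1). The p-values measure the spread between the tumors of these groups. Named members were a set of main chains, the 4 highest of each type, every called or non-overlapping member, the 5 smallest p in each direction and the 3 highest and lowest CVs in Control; of each related list, the called genes and the 2 smallest p were named. Timp1, Mmp15, Lrat, Acta2, Postn, Pdgfrb, the cartilage markers and Col25a1 were named after their values were seen, and some genes of the related lists are not reported here. The members and lists were chosen with earlier results of these data known.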

Additional observations from a re-analysis of the deposited data

Results flagged for a closer look

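Among the 50 combinations of a named collagen gene and a group of 4 tumors, 9 held a tumor set apart from the other 3 by Dixon's criterion. Chance flags about 1 in 20 independent groups. These genes shared the same tumors, and some were named for a high CV in Control, so the count cannot be judged by that rate. The highest values came from IMQNP 1 in 4 genes, Col1a1 (3913 CPM), Col5a1 (457 CPM), Col4a2 (445 CPM) and Col18a1 (539 CPM). Col6a5 (37.0 CPM) and Col6a6 (2.52 CPM) stood apart in IMQNP 2 and Col27a1 (64.4 CPM) in Control 4, the tumors with the highest hepatocyte marker sums. Col5a3 (145 CPM) and Col11a2 (6.57 CPM) stood apart in Control 5.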

How the results depend on the processing

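Depth limited the scarce members: 3 counts were worth 0.105 to 0.21 CPM, and the 2 called genes had at most 27 counts in a Control tumor. The count of collagen genes called higher was 2 under RLE and upper-quartile scaling and without the fold limit, 2 without a filter on low counts (where Col11a2 took the place of Col24a1), 1 with at least 10 counts in every tumor (Col9a3), 0 with Control 4 and IMQNP 2 left out together, and 0 to 3 with 1 tumor left out, where 0 were called without Control 1, 3 or 4 or without IMQNP 2, 3 or 4; 0 were called lower in every setting run. Over all genes, 197 to 375 were called higher and 8 to 38 lower with 1 tumor left out. The number called lower was 63 without a filter and 133 by DESeq2, which called 619 higher. In the related lists 2 to 4 genes were called higher and 0 lower with 1 tumor left out, and 1 was called lower without a filter and by DESeq2 (Mmp15 in both). Median log2 fold changes with 1 tumor left out ranged from 0.08 to 0.42 for tested collagens, 0.36 to 0.81 for fibrillar, -0.17 to 0.16 for basement membrane and 0.014 to 0.33 for other members. For other members the median was 0.27 without a filter, 0.28 with the stricter filter and by DESeq2, and 0.25 with Control 4 and IMQNP 2 left out. With the longest transcript the Control level was 143 CPM per kb for Col1a2 and 131 CPM per kb for Col3a1. Centered on group means, Col1a1 and Col3a1 gave r = 0.79 (exact permutation, adjusted p = 0.0462) and so passed. Control levels with 1 tumor left out were 149 to 180.1 CPM per kb for Col1a1, 59.6 to 64.3 for Col1a2, 69.7 to 77.0 for Col3a1, 47.2 to 55.0 for Col4a1, 24.5 to 32.2 for Col4a2 and 156 to 212 for Col6a1. Beyond the counts given here, the cause of these differences was not tested.

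Both groups hold tumors numbered 1, 3 and 4, from different mice. The deviations of same-numbered tumors correlated at 0.29, -0.27 and -0.32, with 0 of 3 closest to their own number, so no pairing by number was seen. Whether same-numbered tumors shared anything beyond a number was not tested. On those 6 tumors, 300 genes were called lower with the replicate block and 205 without it, and 3 collagens were called higher in both (Col7a1, Col9a3 and Col11a2), so the block changed no collagen call; it gave medians of 0.24 for basement membrane and 0.25 for other collagens, against 0.20 and 0.25 without it.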
